A study of Mus musculus with 4 samples.

Results

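The cells described here are peritubular capillary endothelial cells of the mouse kidney, the cells that line the capillaries around the cortical tubules. They were chosen by measured values in single-cell RNA-seq tables, the unique molecular identifier (UMI) counts of 19 genes, each UMI standing for 1 captured mRNA molecule. A barcode first had to pass an endothelial gate, with at least 3 UMIs of the endothelial genes Pecam1, Cdh5, Kdr and Tie1 together and at least 12 such UMIs per 10000. Among these barcodes, the summed UMIs of Igfbp3, Npr3 and Esm1 had to reach 2 and to exceed the sums of 4 other sets of 3 genes. Those sets mark arterial (Fbln5, Gja4, Sema3g), glomerular (Plat, Pi16, Ehd3), medullary-type (Cryab, S100a4, Kitl) and venous-type (Ptn, Sema3d, Vcam1) endothelium. The rule kept 1365 of 10535 barcodes, or 1365 of the 2885 that passed the gate.

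Every mouse was C57BL/6J and 10 to 14 weeks old. The angiotensin II hypertension group (A2 HTN) had 749 members, and the salt-sensitive hypertension group (SS HTN) had 540. The controls had 76; they were saline mice for the angiotensin II model and mice on normal diet for the salt-sensitive model. Kidneys of all mice of a group were pooled and dissociated, and cells were captured with antibodies to CD31 and then to podoplanin. The purpose stated for the series was to study lymphatic endothelium, and capillary endothelium also carries CD31. Each hypertension group was 1 library of pooled animals. The control table held 2 libraries, told apart by their barcode endings. The sources used here do not pair them with the models, and both were added up into 1 control. No comparison between groups therefore has a replicate check, no p-value is given, and every interval covers counting error only.

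Peritubular capillaries receive the blood that has left the glomeruli and take up water and solutes returned by the tubules. Their endothelium is thin and fenestrated, with diaphragms built from the protein encoded by Plvap, and it depends on vascular endothelial growth factor (VEGF) released by the tubules. Like other exchange vessels it binds lipoprotein lipase, takes up fatty acids, carries receptors for endothelin and natriuretic peptides, and can present antigen.

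Members made up 61.2% of the endothelial barcodes in A2 HTN (749 of 1223, exact binomial 95% interval 58.4 to 64.0%), 35.6% in SS HTN (540 of 1517, 33.2 to 38.1%) and 52.4% in the control (76 of 145, 44.0 to 60.8%). The control figure rested on 1 library. Control library 2 gave 72 of 126 endothelial barcodes (57.1%) and control library 1 gave 4 of 19 (21.1%). The hypertension tables were far richer in endothelium, since the gate was passed by 43.1% of barcodes in A2 HTN, 46.2% in SS HTN and 3.29% in the control. The medullary-type set led in 210, 395 and 19 endothelial barcodes of A2 HTN, SS HTN and the control, the glomerular set in 97, 239 and 21, the venous-type set in 27, 39 and 6, and the arterial set in 36, 73 and 0. The median member held 4860 UMIs in A2 HTN, 2278 in SS HTN and 2982 in the control, against 4653, 2463 and 2402 in the other endothelial barcodes. Depth thus differed between the groups by more than it did between members and their neighbours. Members summed to 3549873 UMIs in A2 HTN, 1306215 in SS HTN and 215581 in the control, of which control library 1 gave 6103. Pairs of libraries shared 0 to 2 barcode sequences, and no member barcode was shared. With each barcode thinned to 1000 UMIs, the share of members was 53.8% in A2 HTN (447 of 831), 35.3% in SS HTN (372 of 1055) and 42.2% in the control (38 of 90), in the same order as without thinning.

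**Figure D1:**
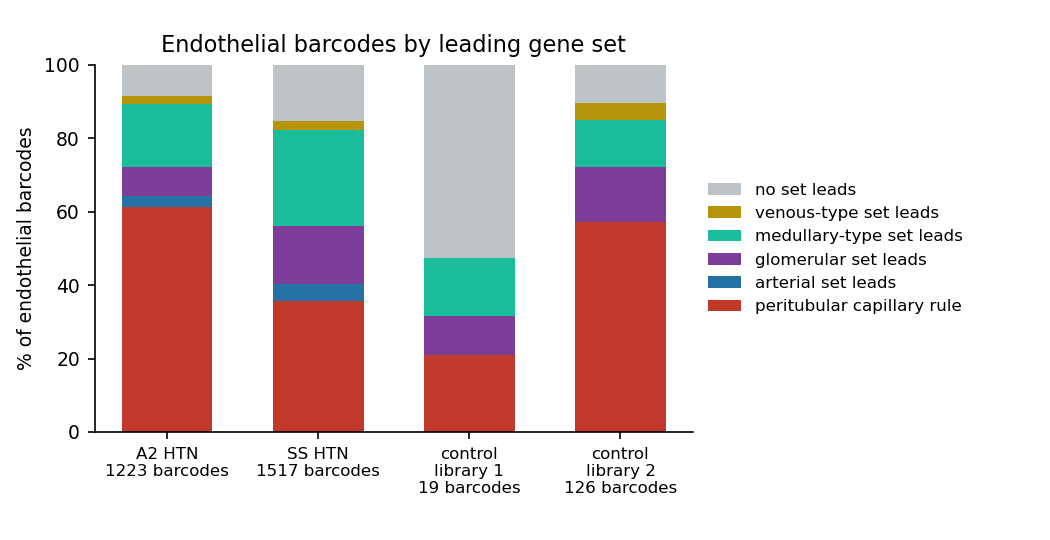
Stacked bars give the percent of endothelial barcodes (y axis) by the gene set that led, in the A2 HTN library, the SS HTN library and the 2 control libraries (x axis, with the number of endothelial barcodes). The peritubular set took 61.2% in A2 HTN and 35.6% in SS HTN, with 21.1% for control library 1 and 57.1% for control library 2.

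The 3 genes that chose the members are given as a description, because the rule used them. All levels below are counts per 1000000 UMIs (CPM) summed over the members of a group, over the 11049 genes that the 3 tables share, unless stated otherwise. Igfbp3, which binds insulin-like growth factors, was at 2635 CPM in A2 HTN, 1611 in SS HTN and 2098 in the control. Npr3, the clearance receptor for natriuretic peptides, was at 672, 949 and 803 CPM in the same order. Esm1, a secreted proteoglycan of VEGF-stimulated endothelium, was at 2550, 2554 and 2753 CPM. All 3 genes were seen together in 55.5% of members in A2 HTN, 43.7% in SS HTN and 52.6% in the control. The median member had 19, 9 and 11 UMIs of the set, and 11, 32 and 1 members sat at the minimum of 2. Just outside, 103, 215 and 14 endothelial barcodes had 1 UMI, a further 34, 55 and 2 were tied with another set, and 155, 146 and 10 were outscored by one.

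Plvap and Gpihbp1, which the rule did not use, did not step at that edge in the same way. Plvap was at 2126 CPM of all UMIs in A2 HTN members with 2 UMIs of the set and at 2073 CPM in A2 HTN endothelial barcodes with 1. In SS HTN it was at 1853 CPM with 2 UMIs and at 1183 CPM with 1. Gpihbp1 was at 966 CPM with 2 UMIs and 465 CPM with 1 in A2 HTN, and at 1420 and 493 CPM in SS HTN. In these counts Gpihbp1 separated the edges more than Plvap did. The A2 HTN barcodes just outside the rule kept nearly the Plvap level of those just inside. The A2 HTN members at the edge were only 11, with 30 Gpihbp1 UMIs and a median depth of 2479 UMIs, against 4530 just outside. In SS HTN, members with 3 to 9 UMIs of the set had 955 CPM of Gpihbp1, less than those with 2. The control had 1 member at the edge, without a Gpihbp1 UMI. Of the 3 medullary-type genes, Cryab and S100a4 were low in members and Kitl was not. Kitl, which encodes stem cell factor, was at 633 CPM of all UMIs in A2 HTN members, 778 in SS HTN and 691 in the control, against 1167, 1278 and 1400 CPM in the medullary-type barcodes.

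The label held for markers outside the rule. Plvap, Gpihbp1, Cd36 and Plpp3 summed to 8597 CPM of all UMIs in members of A2 HTN, 6491 in SS HTN and 7287 in the control, against 4984, 2497 and 3616 CPM in the other endothelial barcodes and 630, 507 and 367 CPM in barcodes with 0 UMIs of the gate genes. Gpihbp1, the protein that holds lipoprotein lipase on the capillary wall, was at 1337, 1000 and 1142 CPM in members, 575, 272 and 419.6 CPM in other endothelial barcodes and 101, 31.3 and 7.37 CPM in barcodes without gate UMIs. Plpp3, a lipid phosphate phosphatase, was at 3636, 2788 and 2878 CPM in members and 1885, 1054 and 1407 CPM in other endothelial barcodes. Cd36 did not follow them, with 419, 447 and 186 CPM in members against 465, 234 and 469 CPM in other endothelial barcodes.

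**Figure D2:**
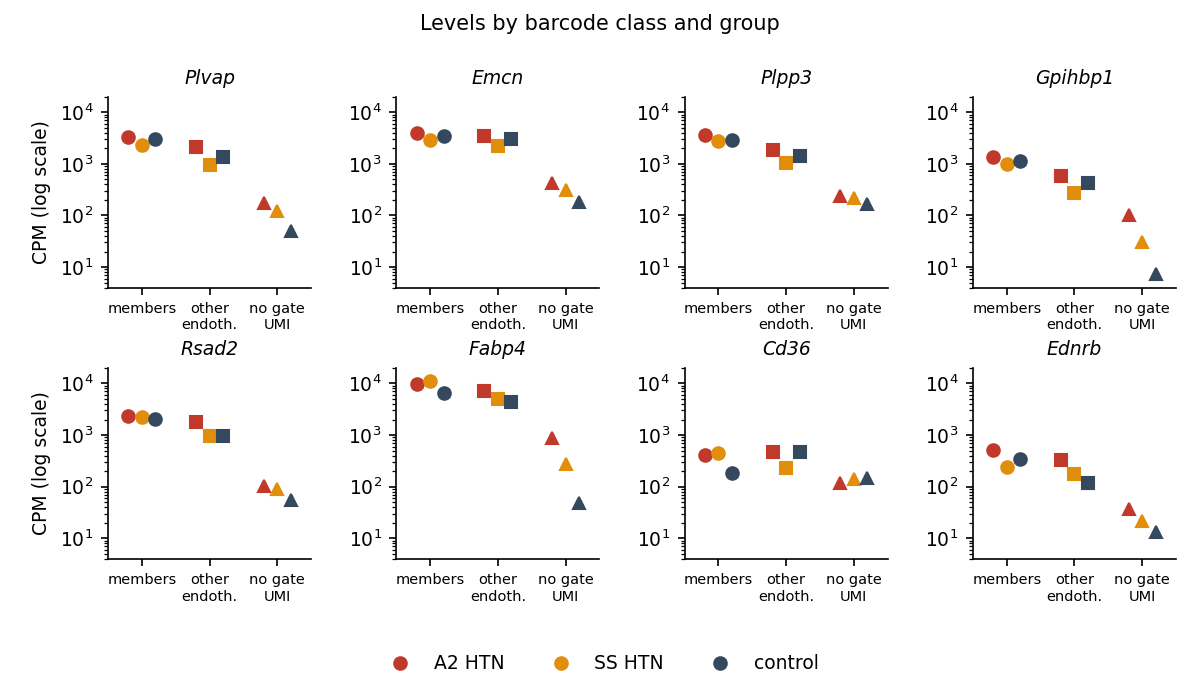
Each panel gives the level of 1 gene in CPM (log y axis) in members, other endothelial barcodes and barcodes with no gate UMI (x axis), 1 point per group, coloured by A2 HTN, SS HTN or control. For Plvap, Plpp3, Gpihbp1 and Rsad2 the 3 member points lie above the other endothelial points of their own group, while for Cd36 the control member point of 186 CPM lies below the 469 CPM of the other control endothelium.

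Markers of tubule, macrophage, mural and fibroblast cells were present in members, at lower levels than in barcodes without gate UMIs. The 17 proximal tubule markers summed to 854, 1687 and 1243 CPM of all UMIs in members of A2 HTN, SS HTN and the control, against 21924, 24275 and 20898 CPM in barcodes without gate UMIs; 3 of the 17 were at 0 in control members. Distal nephron markers summed to 121, 351 and 283 CPM in members against 3969, 5463 and 6522 CPM. Macrophage markers (6, 5 and 11 of 12 genes measured) summed to 47.3, 38.3 and 55.7 CPM in members. Other endothelial barcodes held 29.8, 15.9 and 24.6 CPM of them. Members had 5, 1 and 0 UMIs of C1qa. Mural and fibroblast markers summed to 18.0, 24.5 and 23.2 CPM in members. The lymphatic list (4, 5 and 7 of 10 genes measured) stood at 481, 482 and 482 CPM in members. It stood lower in other endothelial barcodes, at 350, 325 and 265 CPM, and without gate UMIs, at 206, 219 and 230 CPM. Prox1, the defining lymphatic transcription factor, had 6, 2 and 0 UMIs in members. The podocyte list stood at 1064, 1040 and 1076 CPM, and Podxl, which endothelium also expresses, gave 932, 923 and 983 CPM of it. Tubule signal was thus lowest in A2 HTN members, and its part in the group comparisons was not tested. Doublets were not called, and no source here states whether they had been removed before deposit.

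Genes of fatty acid handling and of VEGF reception were readily counted in members; of those given next, Kdr is 1 of the 4 gate genes that chose the barcodes. Fabp4, a cytosolic fatty acid carrier, was at 9810 CPM in A2 HTN, 11122 in SS HTN and 6565 in the control. Igfbp5, another binder of insulin-like growth factors, was at 6164, 7229 and 6337 CPM. Among VEGF receptors, the decoy receptor gene Flt1 was at 3052, 3182 and 2730 CPM, the signalling receptor gene Kdr at 1984, 2327 and 1945 CPM and the co-receptor gene Nrp1 at 2734, 3085 and 2177 CPM. These levels are per transcript end and not corrected for capture, so they are compared within a gene. Emcn, the endothelial sialomucin endomucin, was at 4014, 2884 and 3463 CPM.

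Interferon-response genes were abundant in members of every group, the control included. Rsad2, which encodes the antiviral enzyme viperin, was at 2330 CPM in A2 HTN members, 2233 in SS HTN and 2075 in the control. It was at 1765, 977 and 963 CPM in the other endothelial barcodes and at 101, 91.3 and 56.2 CPM in barcodes without gate UMIs. At 1000 UMIs a cell, Rsad2 was seen in 80.4% of A2 HTN members, 79.8% in SS HTN and 73.0% in the control. Of barcodes without gate UMIs it was seen in 8.81, 7.49 and 4.02%. Shallower barcodes were left out of such shares, among them 744 of 1096, 614 of 1028 and 2496 of 3590 without gate UMIs. Ifitm3, which blocks viral entry, was at 3463, 2193 and 2911 CPM, and Bst2, the virus-tethering protein tetherin, at 1242, 1548 and 1133 CPM. Isg15, a ubiquitin-like modifier, was at 332, 326 and 283 CPM. Ifit3, an RNA-sensing effector, was at 281, 160.2 and 158 CPM, and Irf7, a transcription factor of the pathway, at 231, 154 and 144 CPM. The order of the groups thus differed from gene to gene: Bst2 was highest in SS HTN and Ifitm3 lowest there. The summed UMIs of the list per member, at 1000 UMIs a cell, had a median of 17 in A2 HTN, 14 in SS HTN and 13 in the control. The 10th and 90th percentiles were 9 and 28.2 in A2 HTN, 8 and 25 in SS HTN, and 7 and 21.7 in the control. It did not follow the peritubular set across cells, with Pearson correlations of 0.01, 0.02 and -0.15 over 739, 535 and 74 members of the same libraries.

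The promoters of Rsad2, Ifit3 and Isg15 are shown as examples of list genes with a match to a sequence that the rule did not use. The interferon-stimulated response element was searched on both strands, as GAAA, any 2 bases and GAAA again, in the 250 bases before each gene's start, in RefSeq promoters on GRCm38.p6. It was found for 17 of 34 list genes with a promoter (50%) and for 936 of 27025 genes overall (3.46%). Overlapping matches within a promoter were each counted. Rsad2 (chr12:26456453-26456702, minus strand) had 1 match beginning 120 bases before the start, Ifit3 (chr19:34583279-34583528, plus strand) had 2 at 156 and 122 bases, and Isg15 (chr4:156200819-156201068, minus strand) had 3 overlapping ones between 78 and 66 bases. A match describes the letters and is not a measured binding site. Each sequence runs 5′ to 3′ on the gene's strand, and capitals mark the match.
Rsad2: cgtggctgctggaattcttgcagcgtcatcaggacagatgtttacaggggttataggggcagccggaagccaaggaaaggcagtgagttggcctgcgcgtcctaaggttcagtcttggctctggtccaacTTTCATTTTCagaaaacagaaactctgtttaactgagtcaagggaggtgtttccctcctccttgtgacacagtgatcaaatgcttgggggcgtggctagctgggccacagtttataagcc
Ifit3: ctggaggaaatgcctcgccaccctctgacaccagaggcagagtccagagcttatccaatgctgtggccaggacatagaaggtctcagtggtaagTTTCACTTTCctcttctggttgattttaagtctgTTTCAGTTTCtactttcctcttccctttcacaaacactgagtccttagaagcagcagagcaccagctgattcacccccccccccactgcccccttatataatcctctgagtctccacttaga
Isg15: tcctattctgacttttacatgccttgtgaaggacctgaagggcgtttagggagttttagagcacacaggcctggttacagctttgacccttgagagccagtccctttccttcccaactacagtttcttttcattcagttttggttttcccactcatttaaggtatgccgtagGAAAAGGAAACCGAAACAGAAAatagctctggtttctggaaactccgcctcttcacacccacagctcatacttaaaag
The element is read on the opposite strand in Rsad2 and Ifit3 and on the gene's own strand in Isg15.

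Against the other endothelial barcodes, 28 of 4264 genes with a mean of at least 50 CPM were at least 1 higher on the log2 scale in members, as the mean over the 3 groups, and 74 were at least 1 lower. Both counts, and the genes named from this contrast, were limited to the 2053 genes with the same sign in all 3 groups. The rule divided the same barcodes, so these are a description. All log2 ratios here are of CPM + 5, which understates the difference of low genes. Genes higher in members included Uchl1, a neuronal-type ubiquitin hydrolase, at 152, 140.0 and 246 CPM in members of A2 HTN, SS HTN and the control, against 46.6, 50.6 and 43.2 CPM in other endothelial barcodes (mean log2 ratio 1.79). Gja1, the gap junction protein connexin 43, was at 136, 174 and 186 CPM against 51.1, 58.1 and 67.9 CPM (1.41). Enpep, the aminopeptidase that trims angiotensin II, was at 157, 103 and 130.0 CPM against 86.2, 28.9 and 49.4 CPM (1.27). That these genes were higher in members in all 3 groups was a condition of their choice. Chst2, a sulfotransferase, had a mean log2 ratio of 1.55, and Gpx8, an endoplasmic reticulum peroxidase, 1.54. Btnl9 (1.48), Ccn2 (1.39), Vwa1 (1.35), Apoe (1.26), Ntf3 (1.19) and Egln3 (1.18), the last an oxygen-sensing prolyl hydroxylase, were also on this side. Single classes could exceed the members. Egln3 was at 118, 116 and 131 CPM in venous-type barcodes and at 94.6, 44.1 and 83.6 CPM in members. Ccn2 was at 108 CPM in A2 HTN glomerular barcodes and at 70.3 CPM in A2 HTN members.

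The genes lower in members included genes of larger vessels and of glomeruli. Mgp, an inhibitor of vascular calcification, was at 31.4 CPM in A2 HTN members, 5.42 in SS HTN and 0 in the control, against 484, 692 and 204 CPM in the other endothelial barcodes. It reached 4121 CPM in the arterial barcodes of A2 HTN. Vim, an intermediate filament, was at 89.7, 65.8 and 51.1 CPM against 477, 727 and 160.5 CPM (mean log2 ratio -2.43), and Eln, elastin, at 17.1, 16.2 and 9.29 CPM against 85.3, 197 and 67.9 CPM (-2.54). Epha6, an ephrin receptor, was at 4.86, 39.5 and 4.64 CPM against 168, 409.6 and 117 CPM (-3.67), with 454 CPM in the glomerular barcodes of A2 HTN. Lpl, lipoprotein lipase itself, was at 5.71, 15.5 and 13.9 CPM against 41.6, 121 and 253 CPM (-2.84), so members had the anchor Gpihbp1 and little of the enzyme's mRNA.

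Members also differed among themselves. Thinned to 1000 UMIs a cell (739, 535 and 74 members, with 10, 5 and 2 shallower ones left out), most genes varied as counting alone gives: the median ratio of variance to mean over 3781 genes was 1.04, 1.05 and 0.97. Fabp4 stood far above it, with ratios of 5.81 in A2 HTN, 9.85 in SS HTN and 6.59 in the control. The middle member had 8, 9 and 5 Fabp4 UMIs per 1000, the 10th percentiles were 3, 1 and 1.3, and the 90th percentiles 20.2, 26.6 and 14. Igfbp5 had ratios between 3.35 in the control and 5.09 in SS HTN, with medians of 5, 7 and 5.5 UMIs. Fabp4 and Igfbp5 tended to be high in different members, with correlations over cells of -0.20, -0.23 and -0.30. Fabp4 went with Cd36 in A2 HTN and SS HTN (0.33 and 0.39) but not in the control (-0.08). Igfbp5 went with Plpp3 (0.23, 0.31 and 0.08) and with Npr3 (0.20, 0.35 and 0.02). These are weak correlations in sparse counts from cells of 1 library, given only to describe the spread.

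**Figure D3:**
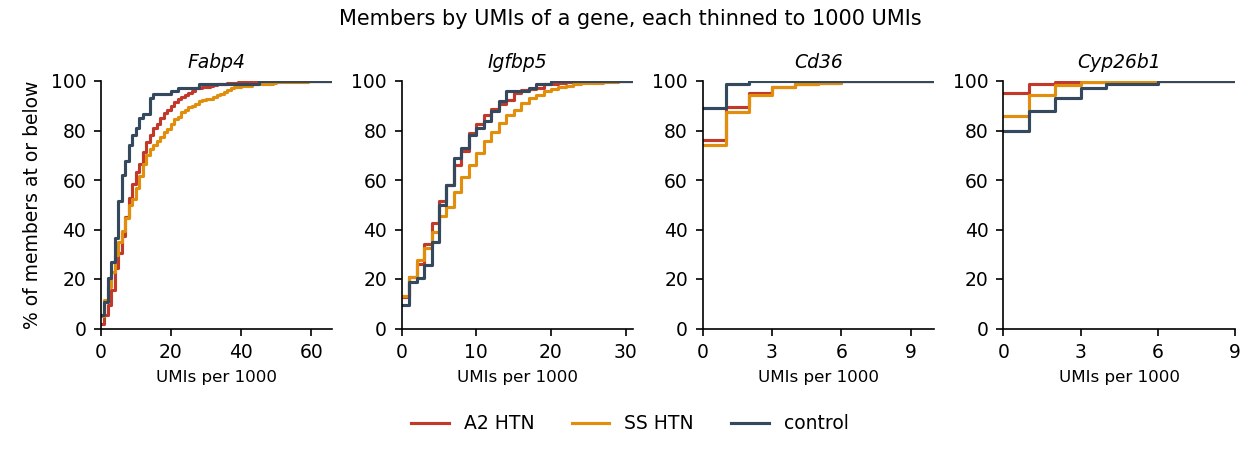
Curves give the cumulative percent of members (y axis) with up to a given number of UMIs per 1000 (x axis) for Fabp4, Igfbp5, Cd36 and Cyp26b1, 1 curve each for A2 HTN, SS HTN and control. The Fabp4 curves reach 62, 64 and 45 UMIs with medians of 8, 9 and 5, and the Cyp26b1 curves begin highest in A2 HTN, where 4.74% of members had a UMI, with 14.0% in SS HTN and 20.3% in the control.

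A2 HTN members were then compared with control members. Of 4145 genes with a mean of at least 50 CPM over the 2 groups, 46 (1.11%) were at least 1 higher on the log2 scale in A2 HTN and 25 (0.603%) at least 1 lower, and the median of all was 0.01. Sparcl1, a secreted matrix-associated glycoprotein also called hevin, was at 488 CPM in A2 HTN and 111 CPM in the control (log2 ratio 2.08, 95% counting interval 1.55 to 2.78), from 1707 and 24 UMIs. Cyp26b1, which degrades retinoic acid, was at 65.4 CPM in A2 HTN and 478 CPM in the control (-2.78, -3.21 to -2.52). Ezh2, which encodes a methyltransferase of histone H3 that acts in gene silencing, was at 119 and 348 CPM (-1.51, -1.90 to -1.17). Sparcl1 was thus the higher and Cyp26b1 the lower extreme with a known product. In A2 HTN 57.5% of members held a Sparcl1 UMI and 23.7% in the control; at 1000 UMIs a cell these shares were 32.5 and 13.5%, against 3.13 and 1.55% in barcodes without gate UMIs. For Cyp26b1 the shares at 1000 UMIs were 4.74 and 20.3%, against 0.852 and 0.640% in barcodes without gate UMIs.

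The other endothelial barcodes of the same libraries give a view of what was shared. Sparcl1 was higher there too, at 518 CPM in A2 HTN and 209.8 CPM in the control (1.28), and in barcodes without gate UMIs, at 43.9 and 18.4 CPM (1.06). Cyp26b1 was lower in other endothelial barcodes as well, at 42.1 and 339 CPM (-2.87), while it was near the bottom of the scale without gate UMIs, at 8.59 and 7.98 CPM. The part of RNA shared by the whole library in these results was not tested. Cd36, the fatty acid translocase, was at 419 CPM in A2 HTN members and 186 CPM in control members (1.15, 0.72 to 1.66), while in other endothelial barcodes it was at 465 and 469 CPM (-0.01). At 1000 UMIs a cell Cd36 was seen in 177 of 739 A2 HTN members and 8 of 74 control members (10.8%). Among barcodes without gate UMIs, which hold other kidney cells, the shares were 11.4 and 10.7%. The control member share was thus close to that of those barcodes.

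The other genes named as higher in A2 HTN were of varied function. Chchd10, a mitochondrial intermembrane protein, was at 317 CPM in A2 HTN and 102 CPM in the control (1.59), and Trim37, a ubiquitin ligase, had a ratio of 1.57. Stox2, a winged-helix protein, was at 442 and 172 CPM (1.34) and Nectin2, a cell adhesion molecule, at 80.9 and 27.9 CPM (1.39). The uncharacterised Gm10076 was at 457 and 97.5 CPM (2.17), and it was also higher in A2 HTN in other endothelial barcodes (1.97) and without gate UMIs (1.43). Galnt15 (1.61), Emp1 (1.39) and Zfp36l2 (1.32) completed this side with Nos3. The lower genes, after Cyp26b1 and Ezh2, were Ripor2 (52.0 and 167 CPM, -1.59), an inhibitor of RhoA, Zfp869 (-1.35), Gadd45g (-1.23), Edn1, AY036118 (-1.18), Lsm4 (-1.11), Rdm1 (-1.09) and Sipa1l3 (-1.08). AY036118 was at 2298 and 5209 CPM and was lower in other endothelial barcodes too (-0.86).

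The vasoactive genes moved in both directions. Nos3, the endothelial nitric oxide synthase, was at 77.1 CPM in A2 HTN and 27.9 CPM in the control (1.32, 0.33 to 2.93), but the control value came from 6 UMIs. With cells thinned to 1000 UMIs the Nos3 ratio was 0.30, and between members of 1500 to 4500 UMIs it was 1.48. Edn1, the precursor of the vasoconstrictor endothelin-1, was at 38.9 and 97.5 CPM (-1.22, -2.00 to -0.59), in contrast to the other endothelial barcodes, where it was at 121 and 67.9 CPM (0.79). Ednrb, the endothelin B receptor, was at 507 and 339 CPM (0.57, 0.24 to 0.94). Over the list, 9 of 14 counted genes were higher and 5 lower, with a median of 0.31 beside 0.01 for all genes. That median was 0.10 with cells thinned to 1000 UMIs and 0.14 between members of 1500 to 4500 UMIs. In other endothelial barcodes it was 0.25 and without gate UMIs 0.75.

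Most interferon-response genes were higher in A2 HTN members. Of 37 counted genes 30 were higher and 7 lower (median 0.33), where 2095 of all 4145 genes were higher. The interval was above 0 for 11 and below 0 for none, against 7.07% of all genes above and 6.88% below. Gbp2, a guanylate-binding protein, was at 162 CPM in A2 HTN and 74.3 CPM in the control (1.07), and Ifit3 had a ratio of 0.81. The same list had a median of 0.50 in other endothelial barcodes and 0.51 without gate UMIs, so the lean was at least as large outside the members. Rsad2 itself had a ratio of 0.17.

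The basement membrane and matrix list had 15 of 18 genes higher (median 0.43), led after Sparcl1 by Col15a1 (0.85) and by Mmrn2 (468 CPM in A2 HTN and 269 in the control, 0.79), a matrix protein of endothelium. The median of that list was 0.52 in other endothelial barcodes and 0.68 without gate UMIs. Fenestration and caveolae genes were higher for 10 of 11 (0.26), while Plvap had 0.11 with an interval of -0.01 to 0.22; the list's median was 0.15 in other endothelial barcodes and 1.19 without gate UMIs. Lipid handling genes were higher for 9 of 13 (0.23), with the cholesterol exporters Abca1 (1.29) and Abcg1 (0.97) beside Cd36. Junction genes were higher for 6 of 9 (0.29), and Notch1 (308 and 186 CPM, 0.72) led a Notch list with 4 of 6 higher (0.21). VEGF and angiopoietin genes were higher for 9 of 11 (0.16), flow-responsive genes for 7 of 10 (0.30) and endothelial transcription factors for 16 of 23 (0.16). In the opposite direction stood oxidative phosphorylation, with 32 of 39 genes lower (median -0.28), where 2050 of all 4145 genes were lower. Its intervals were below 0 for 17 genes and above 0 for none. Ndufc1 (-0.81), Ndufb3 (-0.65) and Uqcr11 (-0.61), subunits of complexes I and III, were its largest. In other endothelial barcodes that list's median was -0.16 and without gate UMIs 0.17.

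The retinoic acid list was short, with 5 of 7 genes lower (median -0.39). Besides Cyp26b1, Dhrs3, which reduces retinal, was at 212 and 339 CPM (-0.67), and Rarb, a retinoic acid receptor, had -0.40. MHC class I genes had 14 of 20 higher (0.08), MHC class II 3 of 4 (0.21), leukocyte adhesion 7 of 10 (0.13), TGF-beta and BMP signalling 10 of 17 (0.03), glycolysis and hypoxia 6 of 12 (-0.06) and immediate-early and heat shock genes 9 of 19 (-0.11). These medians lay within 0.21 of 0 and are not set apart here from the median of all genes. Nor are those of the Notch (0.21), VEGF and angiopoietin (0.16) and endothelial transcription factor (0.16) lists, which were of similar size.

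**Figure D4:**
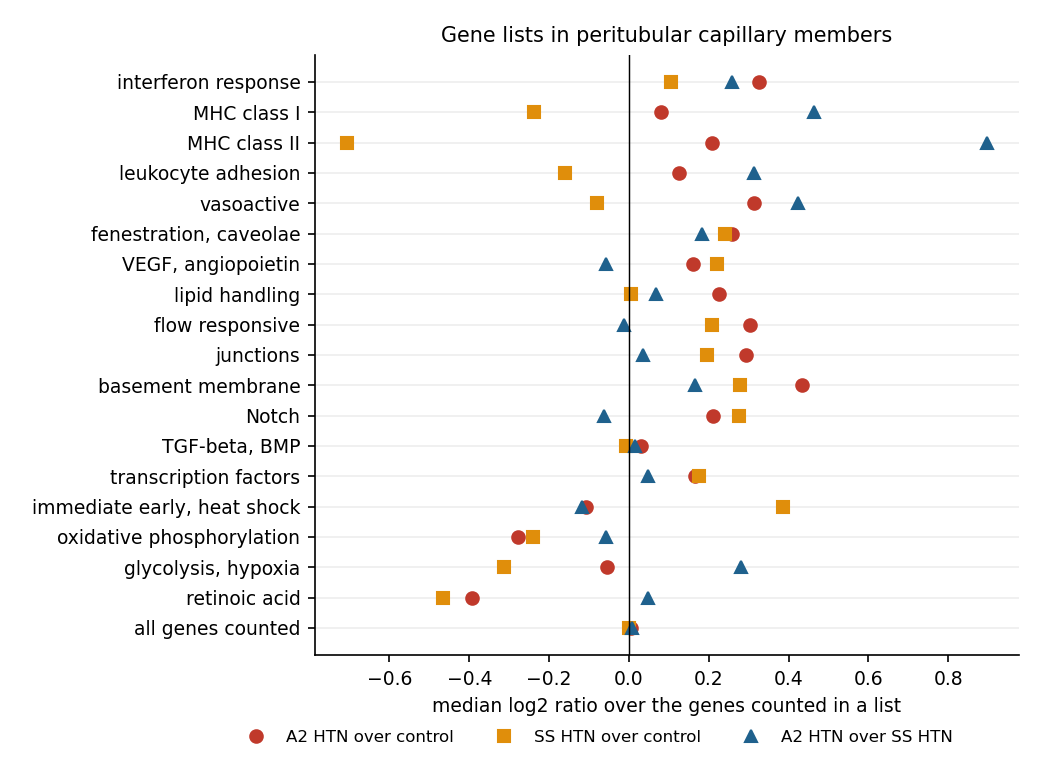
Each row is 1 gene list, with its median log2 ratio (x axis) in members for A2 HTN over control, SS HTN over control and A2 HTN over SS HTN, and all counted genes in the last row. Interferon response lies at 0.33, 0.11 and 0.26, MHC class II at 0.21, -0.71 and 0.90, and oxidative phosphorylation at -0.28, -0.24 and -0.06.

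SS HTN members were compared with the same control members, so both comparisons share the control's errors. Control library 2, the control of only 1 model, gave 209478 of the 215581 control member UMIs. The other model was thus set almost wholly against a control not its own. There, effects of the model and differences between the controls cannot be told apart. Of 4140 genes, 79 (1.91%) were at least 1 higher in SS HTN and 46 (1.11%) at least 1 lower. Sparcl1 was at 549 CPM in SS HTN and 111 CPM in the control (2.25, 1.71 to 2.95), and Cd36 at 447 and 186 CPM (1.25, 0.80 to 1.77). In other endothelial barcodes Sparcl1 was again higher, at 456 and 209.8 CPM (1.10), while Cd36 was lower, at 234 and 469 CPM (-0.99). Fabp4, the partner of Cd36 in fatty acid uptake, was at 11122 and 6565 CPM in members (0.76, 0.68 to 0.84). St8sia4, a polysialyltransferase, had the largest fitted ratio, at 89.7 and 13.9 CPM (2.32), but only 3 control UMIs stood behind it. Gm10076 (391 and 97.5 CPM, 1.95), Pcp4l1 (1.59), Gm35533 (585 and 218 CPM, 1.40), Trim37 (1.37), Impad1 (1.27), Tmtc1 (1.22) and Cacybp (1.21) were the others named on this side.

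The lower genes in SS HTN included cytokine and growth factor signalling genes. Crlf2, a subunit of the receptor for thymic stromal lymphopoietin, was at 41.8 CPM in SS HTN and 144 CPM in the control (-1.67), and Il33, an alarmin cytokine of endothelial nuclei, at 41.8 and 121 CPM (-1.43). Spry1, an inhibitor of growth factor signalling, was at 48.7 and 144 CPM (-1.47). In other endothelial barcodes the ratios were -0.22, -0.40 and -0.63 for Crlf2, Il33 and Spry1. Enho (-1.61), Rflna (-1.49), Taf9 (-1.40), Rer1 (-1.34), Ripor2 (-1.30) and Tm2d2 (-1.29) were lower as well. Cyp26b1 was at 214 and 478 CPM (-1.14, -1.49 to -0.82) and the retinoic acid list had 6 of 7 genes lower (median -0.47).

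Several heat shock genes were higher in SS HTN members, while the list they belong to went both ways. Hsp90aa1, a stress-inducible chaperone, was at 378 CPM in SS HTN and 135 CPM in the control (1.45, 0.95 to 2.08), and Hsp90ab1 at 2069 and 1072 CPM (0.94). Hspb1, a small heat shock protein, was at 1685 and 1110 CPM (0.60, 0.41 to 0.80), and Junb, an immediate-early transcription factor, had -1.07. In all, 12 of 20 list genes were higher (median 0.38, beside 0.00 for all genes), 7 with an interval above 0 and 5 below. Over all 4140 genes 7.73% had an interval above 0 and 9.52% below. Other endothelial barcodes gave a median of 0.65 for this list, and Hsp90aa1 a ratio of 1.35 there and 0.87 without gate UMIs. Hspa1b (0.87) has a near-identical copy, and no source here states how reads common to both were assigned. Mecom, a zinc finger transcription factor, was at 347 and 144 CPM (1.24, 0.74 to 1.84), and at 901 and 401 CPM in other endothelial barcodes (1.16). Barcodes without gate UMIs held more of it, 1186 CPM in SS HTN and 1017 CPM in the control, and its ratio was 0.70 at 1000 UMIs a cell.

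Most antigen presentation genes were lower in SS HTN members. MHC class I and its loading machinery had 17 of 20 genes lower (median -0.24), 8 with an interval below 0, where 2088 of all 4140 genes were lower. The list's median was -0.08 in other endothelial barcodes and 0.29 without gate UMIs. Tap1, the peptide transporter, had -1.10, H2-T22 -0.97, H2-T23 (496 and 873 CPM) -0.81 and the immunoproteasome subunit gene Psmb10 -0.81. All 4 counted MHC class II genes were lower (median -0.71), with medians of -0.0049 in other endothelial barcodes and -1.14 without gate UMIs, while Cd74, the invariant chain, was at 173 and 237 CPM with an interval of -0.90 to 0.01. At 1000 UMIs a cell Cd74 was seen in 12.3% of SS HTN members and 16.2% of control members, against 13.5 and 9.32% of barcodes without gate UMIs. Reads of the H2 genes can be shared between near-identical copies. Ramp3, which pairs with the adrenomedullin receptor, was at 249.9 and 497 CPM (-0.98, -1.31 to -0.66). Nostrin, which binds the endothelial nitric oxide synthase, was at 72.7 and 181 CPM (-1.26), Thbd, the anticoagulant thrombomodulin, had -0.76 and Ptgs1 -0.73. Ednrb was at 245 and 339 CPM (-0.46, -0.84 to -0.08), and Plvap at 2325 and 3087 CPM (-0.41, -0.53 to -0.29). Over the whole vasoactive list 9 of 13 genes were lower, 4 with an interval below 0, and the median of -0.08 was near that of all genes; in other endothelial barcodes it was 0.28 and without gate UMIs 0.57.

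In SS HTN the interferon list had 23 of 37 genes higher (median 0.11), where 2052 of all 4140 genes were higher. Of its intervals 7 were above 0 and 6 below, so its members went both ways. The list's median was -0.004 in other endothelial barcodes and 0.29 without gate UMIs. Trim30a, an interferon-induced ubiquitin ligase, was at 414 CPM in SS HTN and 199.6 CPM in the control (1.03). Ifi27l2a had 0.94, and Ifitm3 -0.41 (-0.53 to -0.28). Basement membrane and matrix genes were higher for 14 of 18 (0.28) and lower for Bgn (-0.91). The median of that list was 0.17 in other endothelial barcodes and 0.35 without gate UMIs. Notch1 (352 and 186 CPM, 0.90), Nrp1 (0.50) and Mmrn2 (0.68) were higher. Notch genes were higher for 4 of 7 (0.28), VEGF and angiopoietin genes for 9 of 11 (0.22) and endothelial transcription factors for 19 of 23 (0.18). In the same order, these lists had medians of 0.43, 0.18 and 0.08 in other endothelial barcodes and 0.37, 0.28 and 0.22 without gate UMIs. Oxidative phosphorylation was lower for 29 of 39 genes (-0.24), and glycolysis and hypoxia for 9 of 13 (-0.31), among them Gapdh (-0.83) and Aldoa (-0.78). Of all 4140 genes 2088 were lower. The medians of these lists were -0.07 and -0.23 in other endothelial barcodes and -0.01 and -0.05 without gate UMIs. Leukocyte adhesion had 6 of 9 lower (-0.16), Icam2 at -0.60, and that list's median was -0.26 in other endothelial barcodes and 0.60 without gate UMIs. Fenestration and caveolae genes were higher for 6 of 11 (0.24), flow-responsive genes for 7 of 10 (0.21) and junction genes for 5 of 9 (0.20). Lipid handling (0.00) and TGF-beta and BMP genes (-0.01) were near the median of all. The medians of the Notch, VEGF and angiopoietin and endothelial transcription factor lists were of similar size to the first of these. None of them is set apart here from the median of all genes.

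Control library 2 decided both comparisons with the control. Without it, 4 control members with 6103 UMIs remained, and Plvap (0.02) and Ramp3 (0.59) no longer lay below 0 in SS HTN.

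The comparison of A2 HTN with SS HTN members does not use the control, and its counting errors were the smallest. Of 4176 genes, 21 (0.503%) were at least 1 higher in A2 HTN and 28 (0.67%) at least 1 lower. Ednrb was at 507 CPM in A2 HTN and 245 CPM in SS HTN (1.03, 0.87 to 1.22). Ramp3 was at 488 and 249.9 CPM (0.95), and Tbxa2r, the thromboxane receptor, at 305 and 169 CPM (0.83). Edn1 was on the other side, at 38.9 and 92.1 CPM (-1.15, -1.61 to -0.88). The receptor gene Ednrb was thus higher, and the ligand gene Edn1 lower, in A2 HTN members. Over the vasoactive list 12 of 14 genes were higher (median 0.42), 9 with an interval above 0. Over all 4176 genes 2125 were higher, and the interval was above 0 for 19.4% and below 0 for 16.6%. In other endothelial barcodes that median was 0.15 and without gate UMIs 0.29, with Ednrb at 0.86 and 0.65.

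Antigen presentation lists had the largest medians between the models, MHC class II ahead of MHC class I. MHC class I genes were higher in A2 HTN for 17 of 19 (median 0.46, beside 0.01 for all genes), 13 with an interval above 0, against the 19.4% of all genes. H2-T23 was at 903 CPM in A2 HTN and 496 CPM in SS HTN (0.86), H2-T22 at 215 and 99.8 CPM (1.07), Tap1 had 0.88 and Psmb10 0.81. All 4 MHC class II genes were higher (median 0.90): Cd74 was at 393 and 173 CPM (1.17, 0.98 to 1.40) and H2-Aa at 115 and 47.2 CPM (1.20). At 1000 UMIs a cell, 21.0% of A2 HTN members and 12.3% of SS HTN members had a Cd74 UMI. Among barcodes without gate UMIs, which hold other kidney cells, the shares were 15.6 and 13.5%. The SS HTN member share was thus below that of those barcodes, and the part of shared RNA in it was not tested. Macrophage markers in members were at 47.3 and 38.3 CPM in total, with 5 and 1 UMIs of C1qa. The MHC class II median was 1.60 in other endothelial barcodes and -0.33 without gate UMIs. In the same order the MHC class I median was 0.67 and 0.32, and that of interferon-response genes 0.46 and 0.25. Interferon-response genes were higher for 30 of 37 (0.26), Ifit3 at 0.79 and Ifitm3 at 0.66, and leukocyte adhesion genes for 10 of 11 (0.31), with the adhesion receptors Icam1 at 0.77 and Icam2 at 0.62. Between members of 1500 to 4500 UMIs, Icam1 stood at -0.10.

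Lower in A2 HTN than in SS HTN were Tgfb2, a TGF-beta ligand, at 18.3 and 92.8 CPM (-2.07, -2.81 to -1.89), Cyp26b1 at 65.4 and 214 CPM (-1.64), Mecom at 142 and 347 CPM (-1.26) and Ezh2 at 119 and 272 CPM (-1.16). Tgfb2 was also lower in other endothelial barcodes (-1.42) and without gate UMIs (-1.03). Gm35533 was at 187 and 585 CPM (-1.62) in members and at 363 and 361 CPM in other endothelial barcodes, and the difference between these was not tested. Chaperones were lower as well: Hspb1 was at 862 and 1685 CPM (-0.96), Hsp90aa1 at 187 and 378 CPM (-0.99) and Hspa1b had -0.98. Rdm1 (-1.29), Gm11290 (-1.14) and Rbms2 (-0.86) were the remaining ones. Higher in A2 HTN were Marcksl1, an actin-linked substrate of protein kinase C, at 94.3 and 34.8 CPM (1.32), and Cd151, a tetraspanin partner of laminin-binding integrins, at 280 and 125 CPM (1.14). Nfu1 (1.29), Crlf2 (1.21), Atraid (1.17), Mxra8 (1.17), Rer1 (1.10), Tm2d2 (1.09) and Cyth2 (1.08) were also named on this side. Plvap (0.52) and Emcn (0.48) were higher, and fenestration and caveolae genes were higher for 8 of 11 (0.18). Glycolysis and hypoxia genes were higher for 10 of 13 (0.28), with Gapdh at 0.89 and Egln3 at 1.02 but P4ha1 at -1.07. Oxidative phosphorylation was lower for 26 of 39 (-0.06) and immediate-early and heat shock genes for 11 of 19 (-0.12).

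The A2 HTN members were the deeper ones, so the comparison was repeated between members of 1500 to 4500 UMIs, 270 in A2 HTN and 467 in SS HTN. Ednrb then had 1.17, Cd74 1.15, Tgfb2 -2.05, Hspb1 -0.90 and Mecom -0.83. The median of the vasoactive list was 0.18 and that of MHC class I 0.40 in these cells. Genes that are at least as high in members as in barcodes without gate UMIs had a median of 0.07 in this comparison, of -0.07 in SS HTN over control and of -0.01 in A2 HTN over control. The members' own genes were thus shifted slightly upward in A2 HTN relative to SS HTN, beside the higher tubule marker sums of 1687 CPM in SS HTN than the 854 CPM in A2 HTN. The part of tubule RNA in that shift was not tested.

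**Figure D5:**
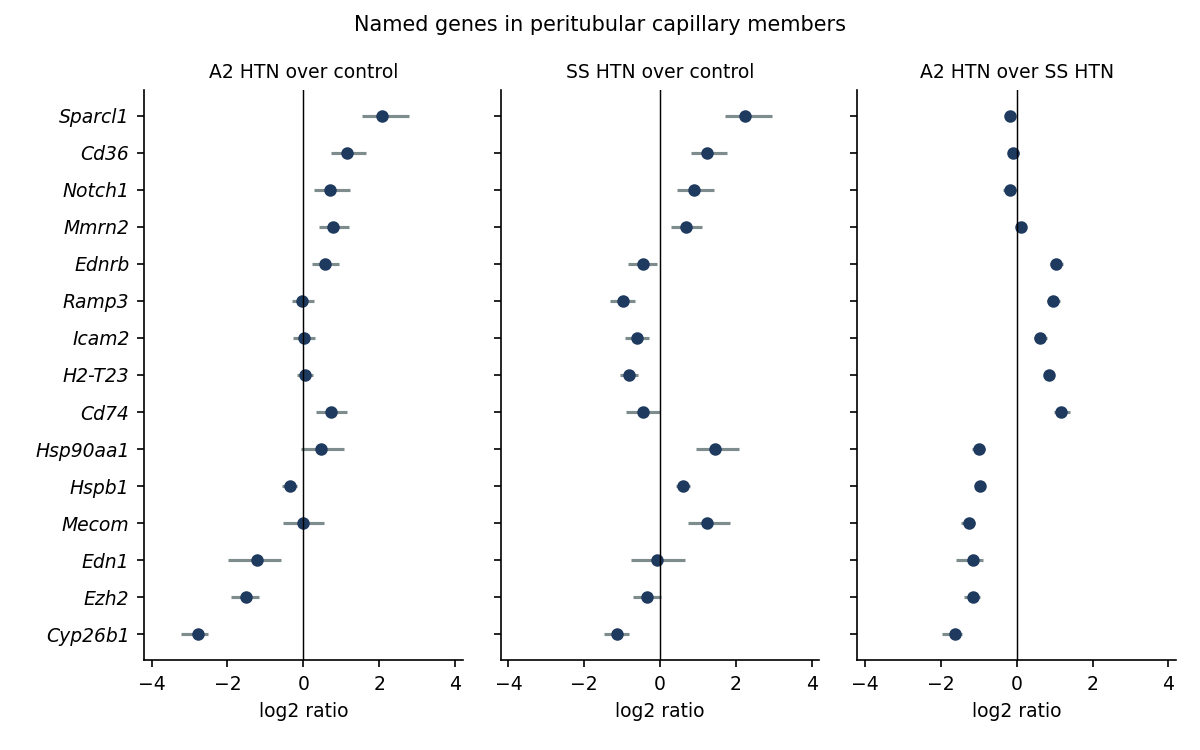
Points give the log2 ratio (x axis) of 15 named genes (rows) in members for A2 HTN over control, SS HTN over control and A2 HTN over SS HTN, with bars for the 95% counting interval. Sparcl1 and Cd36 lie above 1 in both comparisons with the control and within 0.2 of 0 between the models, Cyp26b1 lies below -1 in all 3, and Ednrb lies at 0.57, -0.46 and 1.03.

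In the genome (GRCm38 coordinates of the GENCODE vM21 annotation), the genes that stood out were spread over the chromosomes. Sparcl1 (chr5:104079111-104113733, minus strand), Cd36 (chr5:17781690-17888801, minus) and Hspb1 (chr5:135887919-135889563, plus) are on chromosome 5. Cyp26b1 (chr6:84571414-84593908, minus) and Ezh2 (chr6:47530139-47595341, minus) are on chromosome 6. Ednrb lies at chr14:103814625-103844402 (minus), its ligand gene Edn1 at chr13:42301476-42307990 (plus), Tgfb2 at chr1:186622792-186705989 (minus) and Mecom at chr3:29951296-30548008 (minus). Values are sums over each whole gene, and exons were not told apart.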

How the data were processed

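Single-cell 3' RNA-seq of kidney cells was deposited as UMI counts per gene and barcode. Per the submitters' processing notes, Cell Ranger 7.0.0 and Seurat 4.1 were used with build mm10. The deposited counts are whole numbers, not normalised, in 1 table for each hypertension group and 1 for both controls; each table lists its own genes, and only the 11049 shared ones were compared, which hold at least 98.6% of member UMIs. A table joining the hypertension groups served as an alternative. Columns were matched to groups by their names, and the control libraries by barcode endings.

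UMIs were summed over members per group, scaled to CPM, and compared as log2 ratios of CPM + 5 among genes with a mean of at least 50 CPM. Intervals are exact conditional binomial ones at 95% for the plain ratio, without the added 5 CPM, and cover counting error only. For low genes the printed log2 ratio can therefore lie near a bound of its interval or outside it. Python 3.11.15, numpy 2.4.6, scipy 1.17.1 and pandas 2.3.3 were used, and the code was tested on simulated data. Genes named per comparison were the 10 highest and 10 lowest with an interval that leaves out 0, outside the rule and gate genes and at least as high in members as in barcodes without gate UMIs, and up to 4 per list by size. Genes outside that choice, such as Rsad2, and the correlated pairs were picked after their values were seen. Plvap, Emcn and Hspb1 were within the choice for at least 1 comparison, and their other values were also picked after being seen. The members and the gene lists were chosen with earlier results of these data known. No doublet caller was run. Some named genes are not reported here. Promoters are RefSeq's, and no protein sequence was used here. Alternatives changed the pseudocount, filter, scaling, member definition, depth, control library and table.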

Additional observations from a re-analysis of the deposited data

Results flagged for a closer look

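Only the genes named per comparison or per list were searched here, so the number found is not a count over all genes. Over all counted genes, the 95% counting interval was above 0 for 7.07% and below 0 for 6.88% in A2 HTN over control. In SS HTN over control these shares were 7.73 and 9.52%. For 4 of the genes searched, the 2 hypertension groups lay on opposite sides of the shared control in members, each with an interval that leaves out 0. The difference was not tested, because each group is 1 library. The shared control was mostly control library 2, which belongs to only 1 of the models. Ednrb, the endothelin B receptor, had a log2 ratio of 0.57 for A2 HTN over control and of -0.46 for SS HTN over control. Emcn, endomucin, had 0.21 for A2 HTN and -0.26 for SS HTN. Ifitm3, an interferon-induced antiviral protein, had 0.25 for A2 HTN and -0.41 for SS HTN. Hspb1, a small heat shock protein, went the other way, with -0.36 for A2 HTN and 0.60 for SS HTN. In the other endothelial barcodes Ednrb was above the control in A2 HTN (1.44) and had 0.59 in SS HTN with an interval of -0.05 to 1.35, and Hspb1 was above it in both groups (0.61 and 1.10). Emcn was on opposite sides there too, with 0.15 for A2 HTN and -0.46 for SS HTN, and Ifitm3 had 0.66 and 0.00.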

How the results depend on the processing

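No paired analysis was possible because each hypertension group is 1 library and the labels give no replicate numbers. Over the alternatives other than leaving out control library 2, 974 list medians stayed within the margin and 4 moved; of the single named genes 4422 held, 91 moved and 7 reversed; of counts and shares 67 held and 28 moved. Without control library 2, list medians were not computed, and of the 23 gene ratios whose control level could be seen there 8 held, 10 moved and 5 reversed; all 5 counts and shares moved. The numbers of genes at least 1 higher and lower depended on the pseudocount, the filter, the depth and the control library. For A2 HTN over control (46 and 25) they were 21 and 12 with a pseudocount of 20 CPM, 660 and 304 with no filter, 17 and 12 with at least 100 CPM, 186 and 160 at 1000 UMIs a cell, and 74 and 42 between members of 1500 to 4500 UMIs, a range chosen after seeing the data. For SS HTN over control (79 and 46) they were 32 and 19, 888 and 295, 29 and 14, and 221 and 204 under the first 4 of these. For A2 HTN over SS HTN (21 and 28) they were 6 higher, 48 and 227, 8 and 10, and 44 higher. Leaving out 1 control library gave 48 to 842 higher and 28 to 1532 lower for A2 HTN, 80 to 809 and 53 to 1517 for SS HTN, and a control share of members of 21.1 to 57.1%; the larger counts are those without library 2, where 4 members remain and the median of all genes shifted to -0.68 and -0.72. At 1000 UMIs a cell members were 53.8% of endothelial barcodes in A2 HTN and 42.2% in the control, and 54 genes were higher and 126 lower in members than in other endothelial barcodes (28 and 74 as reported). Values that reversed without control library 2 (leaving out library 1 and then library 2) were Eng (-0.53 and 1.26) and Jund (-0.64 and 1.01) for A2 HTN, and Plvap (-0.42 and 0.018), Ramp3 (-1.005 and 0.59) and Eng (-0.54 and 1.24) for SS HTN. At 1000 UMIs Jam3 (0.26) and Atp5o (0.47) reversed for SS HTN over control. Between members of 1500 to 4500 UMIs, Icam1 (-0.10), Gja1 (0.0035), Nr2f2 (-0.22), Sgk1 (-0.22) and Csf1 (-0.13) reversed for A2 HTN over SS HTN. List medians that moved were MHC class I for A2 HTN over control (0.20 at 1000 UMIs), NF-kB for A2 HTN over control (-0.24 in the depth range) and the angiotensin system for SS HTN over control (-0.39) and A2 HTN over SS HTN (0.63) at 1000 UMIs. The cause was not tested for any of these. The 76 control members limit every comparison with the control.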

Other observations

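The components of the renin-angiotensin system that could be counted in members were few. Of 14 listed genes 8 were among the shared genes and 3 were counted, Enpep, Lnpep and Atp6ap2; the angiotensin II receptor genes were not among the shared genes and are not analysed here. Enpep was at 157 CPM in A2 HTN members, 103 CPM in SS HTN and 130.0 CPM in the control. Lnpep, an aminopeptidase that binds angiotensin IV, was at 146 CPM in A2 HTN, 179 CPM in SS HTN and 172 CPM in the control, and Atp6ap2, the prorenin receptor, at 109, 99.0 and 102 CPM. The list's median was 0.09 for A2 HTN over control, -0.04 for SS HTN over control and 0.14 for A2 HTN over SS HTN. Nr3c2, the mineralocorticoid receptor, was at 85.1 CPM in A2 HTN, 139 CPM in SS HTN and 92.9 CPM in the control, and was higher in barcodes without gate UMIs (203, 334 and 335 CPM). Its log2 ratio for A2 HTN over SS HTN was -0.68 (-0.98 to -0.43). Sgk1, a kinase induced by corticosteroids, was at 943, 842 and 1007 CPM, and the corticosteroid list had medians of 0.10, 0.11 and 0.09 in the 3 comparisons.

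Genes of apoptosis and p53 signalling were lower for 6 of 10 in A2 HTN over control (median -0.34) and for 6 of 9 in SS HTN over control (-0.32), and higher for 5 of 9 in A2 HTN over SS HTN (0.05). Of all genes, 2050 of 4145 and 2088 of 4140 were lower and 2125 of 4176 higher in the same comparisons. The list's medians were 0.01, -0.05 and 0.02 in other endothelial barcodes and 0.01, 0.05 and 0.11 without gate UMIs. Bcl2l1, an inhibitor of apoptosis, was at 84.8 CPM in A2 HTN, 125 CPM in SS HTN and 190.3 CPM in the control. Of 21 cell cycle genes 5 were counted, with medians of 0.32, 0.68 and -0.13; the D-type cyclin genes Ccnd1 (128, 123 and 74.3 CPM) and Ccnd2 (240.3, 292 and 181 CPM) were among them and Mki67 was not among the shared genes. NF-kB genes had medians of -0.01, -0.17 and 0.22. Besides Ezh2, the Polycomb and chromatin list was near the median of all genes, at -0.08, 0.05 and -0.13.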
